A study of Ceratotherium simum with 9 samples.

Results

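miR-423 was represented in the small-RNA libraries of southern white rhinoceros follicular fluid extracellular vesicles (FF-EVs) by 3 of the 3886 miRNA entries counted, and these are eca-miR-423-5p, eca-miR-423-3p and bta-miR-423-3p. They were taken by name, and the ratio of the 3p to the 5p arm was then formed within each library. The prefix eca marks the horse entry and bta the cattle entry of miRBase, because reads were matched to equine, bovine and human miRNAs. All 3 entries were among the 417 miRNAs with more than 10 CPM (counts per 1e+06 reads, adjusted between libraries by TMM) in at least 2 of the 3 libraries of a stage. The members were chosen by the stage pattern of their deposited CPM values and of the arm ratio, which was known beforehand, so their levels and arm ratios are given as a description, and no test result for them is read as support.

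The fluid came from 2 females given chlormadinone acetate and then Deslorelin, a GnRH analog, before transrectal ovum pick-up, and these treatments were common to all groups. Follicles were assigned by diameter to the growing (G; 11 to 17 mm), dominant (D; 18 to 29 mm) and pre-ovulatory (P; 30 to 34 mm) stages, and each stage had 3 libraries (G1 to G3, D1 to D3 and P1 to P3). Each library held RNA of vesicles pooled from the 2 females, so the spread between libraries may be technical and holds no measure of the difference between animals. In such pools a lower level of a miRNA and fewer vesicles that carry it cannot be told apart.

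A miRNA gene is transcribed as a hairpin, and Drosha and Dicer cut from it a duplex with 1 strand from the 5p arm and 1 from the 3p arm. An Argonaute protein usually keeps 1 strand of the duplex and the other is degraded, so the ratio of the arms is often far from 1 and can differ between tissues. Bases 2 to 8 of the kept strand, the seed, pair with target mRNAs, and the arms of a hairpin therefore have different targets. In human, the miR-423 hairpin lies within NSRP1, a gene for a nuclear speckle splicing protein, and miR-3184 lies on the opposite strand of the same locus. miR-423-5p is a common miRNA of human blood plasma, where it has been studied as a marker of heart failure, and miR-423 has served as a normalizer in miRNA assays of body fluids. In the gene table of the rhinoceros assembly NSRP1 stands between SLC6A4 and EFCAB5, and the position of the rhinoceros hairpin was not analysed here.

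The mature sequence of the equine 3p entry, the member whose level and arm ratio are followed below, is shown as the study listed it in DNA letters, with the seed in capitals.
eca-miR-423-3p: aGCTCGGTctgaggcccctcagt
It is 23 bases long and 15 of them are G or C (65.2%), and none of the others among the 44 listed sequences has the seed GCTCGGT. The sequences of the bovine 3p and equine 5p entries were not analysed here. The horse and cattle 3p entries name the same arm of the same hairpin and up to 2 mismatches were allowed in matching, so reads of 1 rhinoceros miRNA may be split between them, and their sum is used as the 3p arm.

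The libraries held between 18384 and 149281 miRNA reads, so that 1 read was worth 5.64 to 38.6 CPM. In the study's summary of sequencing, miRNA reads were a small part of the reads in every library. G3 had the most raw reads there and the lowest share of them passing quality control, and the bearing of this on its values was not tested. D2 stood apart from the rest, as 71.8% of its reads were eca-miR-148a. bta-miR-11980 took 35.0% of the reads of G1. Whole-library scaling therefore weighs on the CPM values, and moving from TMM-adjusted CPM to shares of each library's reads shifted the median log2 difference of all tested miRNAs in P vs. D to 0.70, against 0.16 under TMM. The median in P vs. G was -0.03 by shares, against -0.28 under TMM, and in D vs. G it was -0.77, against -0.43. The ratio of the arms within a library is free of this scaling.

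The 5p arm was the abundant one. eca-miR-423-5p had 17922, 15565 and 5017 CPM in G1 to G3, 5820, 27281 and 8549 CPM in D1 to D3, and 11641, 10822 and 7275 CPM in P1 to P3. It ranked between 10th and 41st in its library, and its values at each stage overlapped those at the others. The mean (± SD, n = 3 each) was 12835 ± 6872 CPM at the G stage, 13883 ± 11682 CPM at D and 9913 ± 2321 CPM at P, and these means lay well within the spread of the libraries. The highest value was that of D2 and the lowest that of G3, and each stood away from the other libraries of its stage.

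As shares of the miRNA reads the 5p entry looked different in D2. It took 0.845% of the reads of D2, between 0.663% in D1 and 0.972% in D3, and the D libraries were then close together. The share was 1.32%, 1.52% and 1.03% in P1 to P3, which put every P library above every D library, as for 18.2% of all 417 tested miRNAs on shares of reads, while the G libraries reached from 0.600% to 2.28%. The log2 difference of eca-miR-423-5p in P vs. D was -0.19 (SE 0.67) on TMM-adjusted CPM and 0.64 on shares of reads, so its direction turned with the scaling, and in P vs. G it turned as well, with -0.20 and 0.14. Relative to the median of all tested miRNAs under the same scaling, the difference in P vs. D was -0.35 and -0.06. In D vs. G the entry differed by -0.01 on TMM-adjusted CPM and by -0.50 on shares, which is 0.41 and 0.27 above the median of all tested miRNAs.

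**Figure D1:**
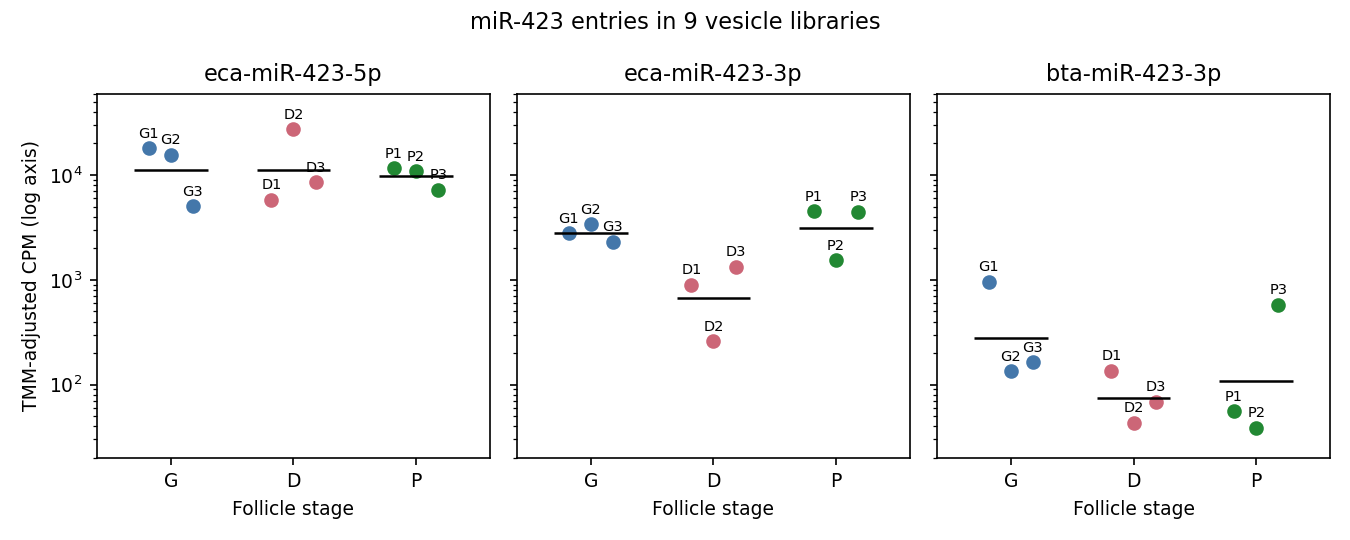
TMM-adjusted CPM (log axis) of the 3 miR-423 entries in each library, by follicle stage, with the geometric mean of a stage as a black line. The equine 3p entry is between 260 and 1333 CPM in the D libraries, below all G and all P libraries, and the 5p entry of D2 is the highest at 27281 CPM.

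The equine 3p entry was lowest in the D libraries. eca-miR-423-3p had 2787, 3414 and 2303 CPM in G1 to G3, 898, 260 and 1333 CPM in D1 to D3, and 4541, 1546 and 4481 CPM in P1 to P3. Its values in D were below all those in G and all those in P, whereas G and P overlapped because P2 was lower than every G library. The mean was 2834 ± 557 CPM at the G stage, 830 ± 540 CPM at D and 3522 ± 1712 CPM at P (SD, n = 3 per stage). In the order of means P came first, then G and then D, and the neighbours P and G did not differ beyond their spread.

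On log2(CPM + 10), eca-miR-423-3p was 2.20 higher in P than in D (SE 0.75), 0.17 higher in P than in G and 2.02 lower in D than in G. By shares of reads the same differences were 2.99, 0.51 and -2.48, and P stayed above D, and D below G, in every library (18.2% and 10.3% of all tested miRNAs on shares of reads). Without D2, which had 12 reads of this entry, the difference was 1.52 in P vs. D and -1.35 in D vs. G, and the groups still did not overlap. Of all 417 tested miRNAs, 12.2% had every P library above every D library and 9.59% had every D library below every G library. With 1 of 3 members in each case, and a choice of members that used these values, nothing is read from that count.

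The fit across all miRNAs gives the background for these differences. In a limma fit of the 417 miRNAs with a Benjamini-Hochberg adjusted p under 0.1 and at least a 2-fold difference asked for, 11 miRNAs (2.64%) passed in P vs. D, 2 (0.480%) passed in P vs. G and 4 (0.959%) passed in D vs. G, and 0 of the 3 members were among them in each comparison. Since these contrasts were used to choose the members, nothing is read from that count, nor from those of edgeR and DESeq2. At an unadjusted p under 0.05 these fits held 61 (14.6%), 31 (7.43%) and 39 (9.35%) miRNAs. The split of higher and lower calls in P vs. D was 4 to 7 on TMM-adjusted CPM and 10 to 3 on shares of reads. In P vs. G it was 1 to 1 on TMM-adjusted CPM, with 0 calls on shares, and in D vs. G it was 3 to 1, against 0 to 1 on shares. Tests on the recovered reads called 7 (1.68%), 3 (0.719%) and 4 (0.959%) miRNAs with edgeR, again with none of the members, and 46 (11.0%), 14 (3.36%) and 14 (3.36%) with DESeq2, which included eca-miR-423-3p in P vs. D and no other member in any comparison.

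The bovine 3p entry was a minor part of the 3p arm in all libraries. bta-miR-423-3p had 35, 4 and 29 reads in G1 to G3, 5, 2 and 3 reads in D1 to D3, and 3, 1 and 23 reads in P1 to P3. Most of its 105 reads, 87 of them, came from G1, G3 and P3, and the other 6 libraries had between 1 and 5 reads. Its mean was 418 ± 466 CPM at the G stage, 82.7 ± 47.9 CPM at D and 225 ± 307 CPM at P (SD, n = 3 per stage), and no stage was separated from another on TMM-adjusted CPM. On shares of reads every D library was below every G library, as for 10.3% of all tested miRNAs. The equine 3p entry had 1176 reads, so the bovine entry held 8.20% of the reads of the arm. Its share of the 3p reads was 25.5% in G1 (95% exact Clopper-Pearson interval 18.5 to 33.7%), 3.77% in G2 and 6.64% in G3. It was 13.2%, 14.3% and 4.92% in D1 to D3, which rest on 5, 2 and 3 bovine reads, and 1.22%, 2.44% and 11.4% in P1 to P3. The shares of G1 and G3 thus differed within the G stage by more than counting error, since the interval of G3 ended at 9.39%. These intervals cover counting error only, as PCR copies of a molecule are counted as separate reads.

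The 5p arm had more reads than the 3p arm in all 9 libraries, with 5049 reads for the 5p arm and 1281 for the 3p arm in all. The number of 3p reads per 5p read was 0.209, 0.228 and 0.492 in G1 to G3, 0.178, 0.0111 and 0.164 in D1 to D3, and 0.395, 0.146 and 0.696 in P1 to P3. Every D library had a lower ratio than every G library, which held for no other of the 28 hairpins compared below (3.57% with miR-423 counted), but miR-423 was chosen on this ratio and nothing is read from it. The P libraries reached on either side of D1 and D3, because P2 had a lower ratio than both. The mean ratio was 0.309 ± 0.158 at the G stage, 0.118 ± 0.092 at D and 0.412 ± 0.275 at P (SD, n = 3 per stage).

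**Figure D2:**
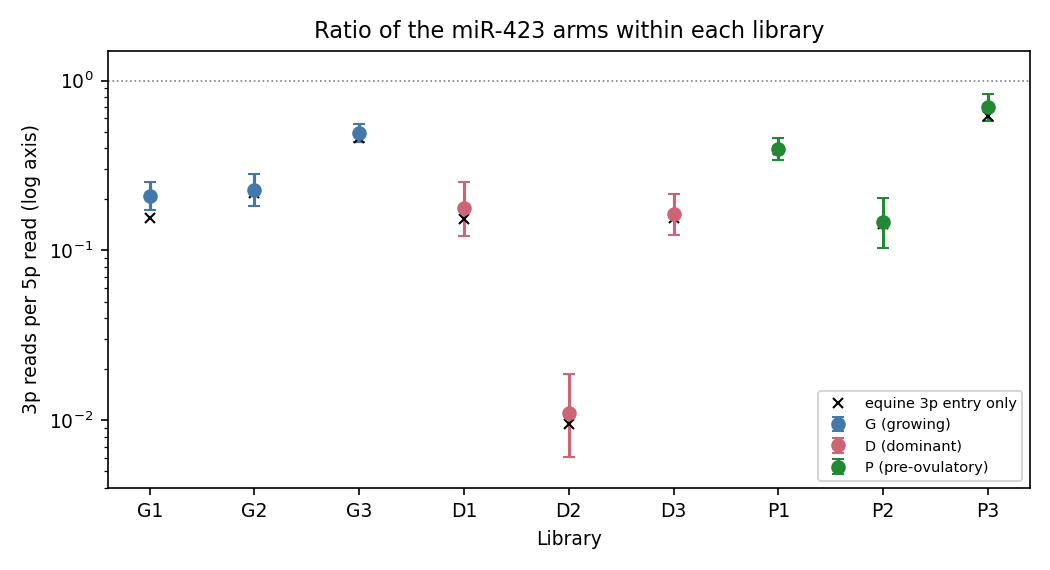
Number of 3p reads per 5p read of miR-423 in each library (log axis), with the 3p arm as the sum of the equine and bovine entries, 95% exact binomial intervals as bars and the equine 3p entry alone as crosses. D2 stands at 0.0111, the other 8 libraries lie between 0.146 and 0.696, and the dotted line marks equal reads of the arms.

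D2 decided how far the D stage stood from the others. It had 14 reads of the 3p arm beside 1261 reads of the 5p arm, which is the largest number of 5p reads of any library. D1 and D3 together had 0.169 reads of the 3p arm per 5p read, and at that ratio D2 would have had 213 reads of the 3p arm. The 95% interval of its ratio, from 0.00605 to 0.0187, did not reach that of any other library, the lowest of which began at 0.103 in P2. The share of eca-miR-148a in D2, 71.8%, was likewise the highest among the libraries for any miRNA, and its part in the arm ratio was not tested.

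As mean log2 ratios (with 0.5 reads added to each arm), the stages stood at -1.80 ± 0.68 at the G stage, -3.84 ± 2.26 at D and -1.54 ± 1.13 at P (SD, n = 3 per stage). The P libraries were 2.30 (SE 1.46) above the D libraries, 4.93-fold as a ratio of geometric means, and 0.26 (SE 0.76) above the G libraries. The D libraries were 2.04 (SE 1.36) below the G libraries. Without D2 the mean of P was 1.00 above that of D, and that of D was 0.74 below that of G, so 1 library carried most of either difference. With the equine 3p entry alone the difference of P and D was 2.39 and that of D and G was -2.01, but D3 (0.1559) then lay just above G1 (0.1555), so the separation of D from G came with the bovine reads of G1.

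The reads of both arms together took much the same share of each P library. miR-423 made up 1.37%, 2.80% and 0.895% of the miRNA reads in G1 to G3, 0.781%, 0.854% and 1.13% in D1 to D3, and 1.84%, 1.75% and 1.75% in P1 to P3. All P libraries were above all D libraries in this share, as for 18.2% of single miRNAs, while their 3p shares ran apart, with 28.3%, 12.8% and 41.0% of the miR-423 reads in P1 to P3 coming from the 3p arm. P1 and P2 therefore had nearly the same share of miR-423 reads and unlike arm ratios, and on TMM-adjusted CPM their arms summed to 16238 and 12406. On TMM-adjusted CPM the sum of the arms in P overlapped that in D, and the log2 difference was 0.13, against 0.96 on shares of reads, which is 0.26 above the median of all tested miRNAs on that scale.

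The entries on the opposite strand of the human locus gave no reads. hsa-miR-3184-3p and hsa-miR-3184-5p were listed at 0 in all 9 libraries, and with 18384 miRNA reads in the shallowest library and 149281 in the deepest a count of 0 allows up to 3 reads in each.

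The other hairpins with reads from both arms show how the arm ratio of miR-423 compares. Of 734 hairpins with both arms named, 28 had at least 10 reads in each arm over the 9 libraries, miR-423 included. Entries with no arm in their name were left out, and 10 of the 28 hairpins had such an entry with reads, which held more reads than the named arms for 5 of them (eca-miR-21 and eca-miR-27a among these), so their arm ratios are uncertain. miR-423 had no such entry. The 5p arm was the higher one in every library for 9 of them, the 3p arm for 4, and for 15 it varied. miR-423 belonged to the 9 hairpins with a constant 5p arm, as did miR-21, miR-9 and miR-30a.

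The difference in P vs. D was positive for miR-423 and for 10 of the other 27 hairpins and negative for 17, with a median over the others of -0.53 on the log2 scale and a range of -2.92 to 2.38. By size, miR-423 stood 6th for P vs. D, 25th for P vs. G and 4th for D vs. G. Without D2 it stood 14th for P vs. D (1.00) and 16th for D vs. G (-0.74), so those ranks rested on that library. The 5 hairpins with larger differences in P vs. D were miR-455 (-2.92), miR-27a (-2.92), miR-199a (-2.66), miR-361 (-2.57) and miR-146b (2.38), and of these only miR-146b had the same direction as miR-423. They rested on fewer reads than miR-423, with 24 to 689 reads of their rarer arm, against 1281. miR-146b, a relative of miR-146a, which restrains innate immune signalling in mouse, had a mean log2 ratio of -1.83 in P, against -4.22 in D. Its values were -2.32, -1.58 and -1.58 in P1 to P3, and -5.78, -6.66 and -0.21 in D1 to D3. Its 5p entries had log2 fold changes in P vs. D of -5.01 (eca-miR-146b-5p) and -2.48 (hsa-miR-146b-5p). Where an arm ratio rests on few reads, the added 0.5 reads draw it toward 0. How far this entered the ratios of miR-146b in P was not tested.

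In a limma fit of the log2 arm ratios of all 28 hairpins, miR-423 included in the adjustment but given no call of its own, 0 of the other 27 were called in each of the 3 comparisons (0%), and 1 (3.57% of 28) had an unadjusted p under 0.05 in each, namely miR-27a (P vs. D), miR-146b (P vs. G) and miR-126, a miRNA of endothelial cells (D vs. G). miR-27a, whose ratio of named arms was 2.92 lower in P than in D on the log2 scale (SE 1.28, adjusted p = 0.55), had its lowest value in P2. 3 of the 28 (10.7%) had all P libraries below all D libraries, and miR-423 was not one of them. The gap between the lowest library and the next, 3.69 on the log2 scale for miR-423, was the widest among the 28 hairpins and was due to D2. For the other 27 hairpins D2 had the lowest ratio in 3 and the highest in 5, so it stood at neither end for most hairpins.

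**Figure D3:**
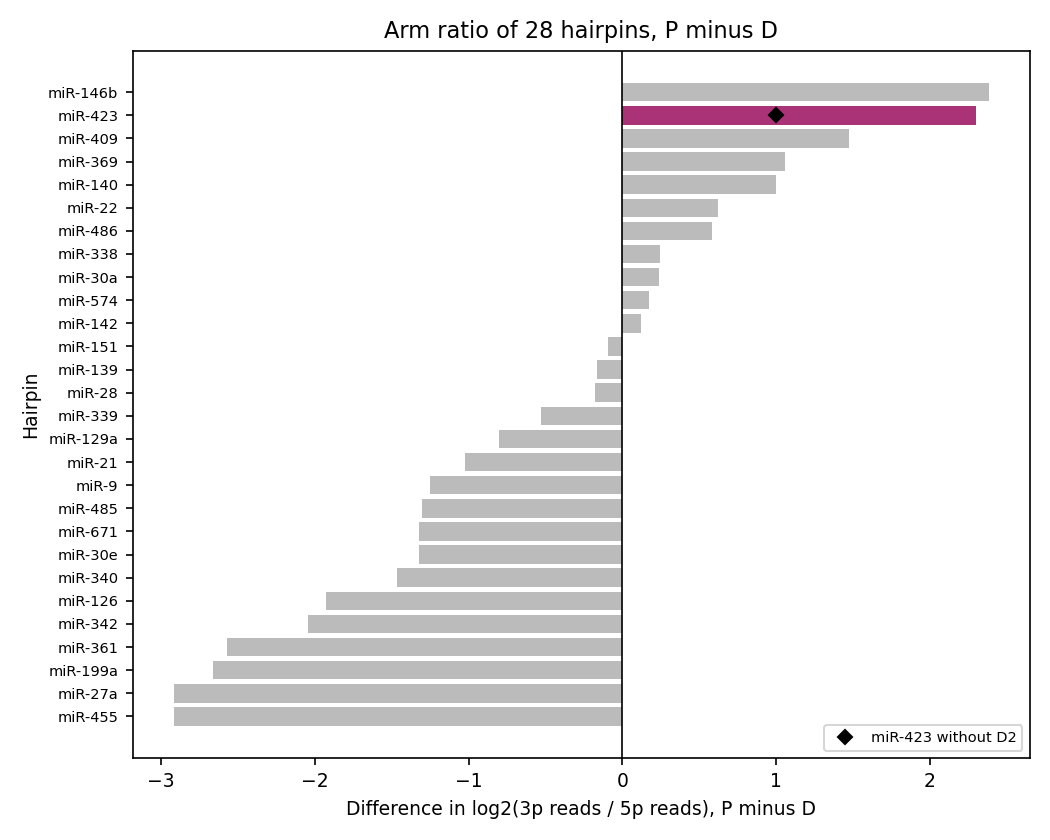
Difference between P and D in the mean log2 ratio of 3p to 5p reads for 28 hairpins, with miR-423 in purple and its value without D2 as a black diamond. miR-423 stands at 2.30, next to miR-146b at 2.38, and at 1.00 without D2, while 17 of the other 27 hairpins are below 0.

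The miRNAs whose levels over the libraries were most like those of eca-miR-423-3p were looked for among 225 others with a mean of at least 100 CPM, by Pearson's r of log2(CPM + 10) over the 9 libraries, which share their depth and scaling. These were eca-miR-615-3p (r = 0.90), eca-miR-184 (r = 0.85), eca-miR-196a (r = 0.80), eca-miR-381 (r = 0.72) and bta-miR-125a (r = 0.70). Without D2, in the same order of miRNAs, r was 0.88, 0.73, 0.81, 0.67 and 0.59. Sequences were listed for 3 of these 5, and they are shown, with the seeds in capitals, to set their seeds beside that of eca-miR-423-3p.
eca-miR-615-3p: tCCGAGCCtgggtctccctctc
eca-miR-184: tGGACGGAgaactgataagggt
eca-miR-381: tATACAAGggcaagctctctgt
None of these 3 seeds is that of eca-miR-423-3p (GCTCGGT). eca-miR-184, an abundant miRNA of the human and mouse cornea and lens, had 8852, 6059 and 1631 CPM in G1 to G3, was listed at 0 in D1 and D2 with 1080 CPM in D3, and had 6895, 10126 and 6645 CPM in P1 to P3. eca-miR-615-3p, whose gene lies in the HOXC cluster in human, had 1885, 569 and 564 CPM in G1 to G3, was listed at 0 in D1 and D2 with 207 CPM in D3, and had 1252, 77.3 and 1158 CPM in P1 to P3. Like eca-miR-423-3p, eca-miR-615-3p was lowest among the P libraries in P2.

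The place of the other miR-423 entries in this order rested on D2. eca-miR-423-5p stood 162nd of 225 with r = -0.32, and bta-miR-423-3p, which names the same arm, stood 25th with r = 0.48. Over the other 8 libraries eca-miR-423-5p stood 35th with r = 0.40 and bta-miR-423-3p 38th with r = 0.35, so their order was turned round.

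The miRNAs most like eca-miR-423-5p over the 9 libraries were bta-miR-451 (r = 0.75), eca-miR-25 (r = 0.70), hsa-miR-451a (r = 0.69), eca-miR-148a (r = 0.69) and eca-miR-186 (r = 0.67), and without D2 the values were 0.60, 0.55, 0.68, 0.34 and 0.66, which put them 10th, 15th, 6th, 35th and 8th. miR-451 is made in red cell precursors by Argonaute 2 without Dicer and is the usual sign of red cells in a fluid. bta-miR-451 had 140777, 77859 and 30843 CPM in G1 to G3, 68295, 159942 and 62716 CPM in D1 to D3, and 48135, 29411 and 37883 CPM in P1 to P3. On TMM-adjusted CPM its highest values were in D2 and G1, as were those of eca-miR-423-5p. On shares of reads bta-miR-451 was at 4.95% in D2, below D1 (7.78%) and D3 (7.13%), and the highest share of either miRNA was in G2 (11.4% for bta-miR-451 and 2.28% for eca-miR-423-5p), so the likeness in D2 came with the scaling.

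The lists of blood cell and liver miRNAs were measured beside this. The 5 red cell entries summed to 4.49 to 15.4% of the reads in G, 6.63 to 10.6% in D and 4.71 to 6.50% in P. Every P library was below every D library, but narrowly between P1 (6.50%) and D2 (6.63%), where eca-miR-148a took 71.8%. On TMM-adjusted CPM 10.1% of all tested miRNAs had every P library below every D library, and on shares of reads this was not counted. Of the 5 tested, 1 (eca-miR-486-5p) was called lower in P vs. D (log2 fold change -2.90, limma adjusted p = 0.048), where 1.68% of all tested miRNAs were called lower. hsa-miR-451a went the other way in P vs. D, with a log2 fold change of 2.31 (SE 1.23), while the other red cell entries were lower in P. The 8 leukocyte entries summed to 0.062 to 0.535% in G, 0.186 to 0.604% in D and 0.021 to 0.169% in P. By limma 2 of 8 (bta-miR-142-5p and eca-miR-142-3p) were called lower in P vs. D, against 1.68% of all tested miRNAs. eca-miR-142-3p and eca-miR-142-5p were listed at 0 in all P libraries. In P vs. D edgeR called 1 of 8 leukocyte and 1 of 5 red cell entries, against 1.68% of all tested miRNAs. DESeq2 called 4 of 8 and 2 of 5 there, against 11.0%. In P vs. G DESeq2 called 2 of 8 leukocyte entries, against 3.36% of all tested miRNAs, and 0 red cell entries. The liver miRNA eca-miR-122 took 0.874 to 4.91% of the reads and limma, edgeR and DESeq2 called it in no comparison (unadjusted limma p under 0.05 in D vs. G only). The part of these cells in the level of miR-423 was not tested.

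The spread of the members over the libraries was set beside that of other abundant miRNAs. The SD of log2(CPM + 10) was 0.79 for eca-miR-423-5p, 1.30 for eca-miR-423-3p and 1.51 for bta-miR-423-3p, against a median of 1.59 over 226 miRNAs with a mean of at least 100 CPM. In the order from the steadiest they stood 32nd, 89th and 106th. This order holds for TMM-adjusted CPM, on which whole-library scaling weighs. The spread on shares of reads was not analysed, and the order may differ there. bta-let-7i was the steadiest on TMM-adjusted CPM, with an SD of 0.27, and had 27357 CPM on average. Within the list of miRNAs used as endogenous controls in body fluids, eca-miR-26a (0.47), eca-miR-191a (0.67) and eca-miR-24 (0.78) also varied less than eca-miR-423-5p. The others of that list with a mean of at least 100 CPM varied more. These were bta-miR-320a (0.81), eca-miR-25 (0.98), eca-miR-16 (1.30), eca-miR-93 (1.35), bta-miR-484 (1.71) and eca-miR-186 (1.80). Within stages, where the differences between stages do not enter, the SD was 0.91 for eca-miR-423-5p (65th), 0.88 for eca-miR-423-3p (60th) and 1.49 for bta-miR-423-3p (124th), and bta-miR-320a (0.78) then varied less than both equine entries. Of the 13 miRNAs of this list that were tested, limma called 0 in any of the 3 comparisons, with 1 at an unadjusted p under 0.05 in P vs. D and 0 in the other comparisons, and edgeR called 0 and DESeq2 1, in P vs. D. Their median log2 difference in P vs. D was -0.27, against 0.16 over all tested miRNAs.

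**Figure D4:**
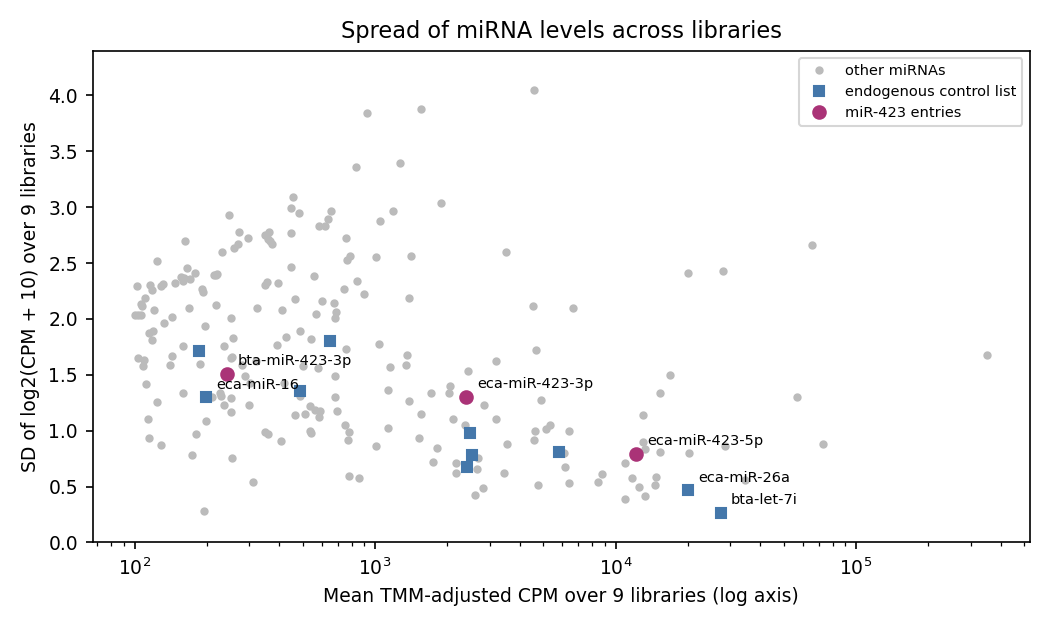
SD of log2(CPM + 10) over the 9 libraries against mean TMM-adjusted CPM (log axis) of 226 miRNAs, with the miR-423 entries in purple and the endogenous control list as blue squares. eca-miR-423-5p has an SD of 0.79 and eca-miR-423-3p one of 1.30, and bta-let-7i is the lowest at 0.27.

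The miRNAs described in survival or growth of granulosa cells, the cells that line the follicle, were counted from a list of 14 tested entries, and limma and edgeR called 0 in each comparison. At an unadjusted p under 0.05 limma held 3 of them for P vs. D, 1 for P vs. G and 0 for D vs. G, and DESeq2 called 3 in P vs. D and 0 in the other comparisons. Over all tested miRNAs the shares at that unadjusted p were 14.6%, 7.43% and 9.35%, and DESeq2 called 11.0% in P vs. D. Their median log2 difference stood at -0.58 for P vs. D, -0.59 for P vs. G and 0.08 for D vs. G, against 0.16, -0.28 and -0.43 over all tested miRNAs. The most abundant of them was eca-miR-21, which restrains apoptosis in mouse granulosa cells, with 34232 ± 11358 CPM at G, 45580 ± 13001 CPM at D and 23431 ± 6133 CPM at P (SD, n = 3 per stage).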

How the data were processed

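RNA of FF-EVs was sequenced in 9 small-RNA libraries. The authors trimmed reads and counted them with CLC Genomics Workbench 21 against equine, bovine and human miRBase 22 entries, allowing 2 mismatches and giving horse entries priority. The deposited values are a signal: CPM adjusted by TMM by the authors, whose columns have unequal sums. Each value above 0 was a whole multiple of the value of 1 read (100% of 3204 values within 0.01 reads), so whole reads were recovered (18384 to 149281 per library), and shares and the arm ratio use these. The use of DESeq2, named in the submitters' processing notes, is not given in the sources used here.

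Levels were compared with limma 3.58.1 (trend, R 4.3.3) on log2(CPM + 10) over the 417 miRNAs with more than 10 CPM in at least 2 of 3 libraries of a stage, with stage as the only term and all 9 libraries in the fit. The pseudocount of 10 CPM understates differences of low miRNAs. Hairpin ratios were compared with limma on log2((3p reads + 0.5)/(5p reads + 0.5)), with entries matched by arm name and summed over species, and entries with no arm in their name left out. Calls were made at a p of under 0.1 after Benjamini-Hochberg adjustment together with a 2-fold difference. As alternatives, edgeR 4.0.16 (quasi-likelihood, TMM) and DESeq2 1.42.0 were applied to the recovered reads, and a pseudocount of 1 CPM, no filter, total-sum scaling, a replicate block, 3 reads added to each arm, at least 50 reads per arm and each library left out were tried. Correlations and hairpin ranks without D2, the separation of stages on shares of reads, the separation of stages with each library left out and differences relative to the median of all miRNAs were added after seeing the data. Intervals of shares are exact Clopper-Pearson, at 95%.

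Named besides the members were the 5 miRNAs most like each equine arm, the 5 hairpins with the largest P vs. D difference and any called, and up to 4 miRNAs of each list by mean CPM. Single miRNAs were also named where a count was 5 or fewer. eca-miR-191a, eca-miR-25, eca-miR-16, eca-miR-93, bta-miR-484 and eca-miR-186 were named among the controls after their values were seen. So were miR-9, miR-21, miR-30a, miR-574 and miR-126 among the hairpins. The members and lists were chosen with earlier results of these data known. The methods describe replicates that were pooled, and p-values cover the spread among libraries only, which may be technical. No pair of libraries of a stage agreed within sampling noise.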

Additional observations from a re-analysis of the deposited data

How the results depend on the processing

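The 135 values of the members under the alternatives moved by less than the within-stage SD of single libraries. This is a wide bound, at 0.91 for eca-miR-423-5p, 0.88 for eca-miR-423-3p and 1.49 for bta-miR-423-3p. Leaving out a library of a stage outside the comparison, or adding the replicate block, cannot change a difference of means. Nor can dropping the filter change that of a member, so such values are no check. eca-miR-423-3p kept its direction in P vs. D and in D vs. G under all 15 alternatives (1.52 to 2.99 and -2.51 to -1.35). These include the settings that could not change it, and its stage pattern was used to choose it, so nothing is read from this. eca-miR-423-5p turned direction under 3 (P vs. D), 4 (P vs. G) and 6 (D vs. G) of 15. bta-miR-423-3p turned in P vs. D only without P3 (-0.58). The arm ratio kept its direction under all 14 alternatives in P vs. D and D vs. G, including those that could not change it. Leaving out each library gave 1.00 to 2.98 in P vs. D and -2.72 to -0.74 in D vs. G. In P vs. G the arm ratio turned only without P3 (-0.25, range to 0.87). As miR-423 was chosen on this ratio, nothing is read from its kept direction. With the median of the replicates in place of the mean, the arm ratio in D vs. G was -0.47, because the median leaves out the value of D2.

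Calls across all miRNAs depended on the processing. In P vs. D, with 11 calls, edgeR gave 7 and DESeq2 46, and leaving out 1 library gave 0 (without P1 or P2) to 16, with 2 without D1, 1 without D2 or D3 and 5 without P3. In P vs. G, with 2 calls, total-sum scaling and no filter gave 0 each and DESeq2 14, and leaving out 1 library gave 0 (without G2, D1, D3, P1, P2 or P3) to 19 (without G1). In D vs. G, with 4 calls, total-sum scaling gave 1 and DESeq2 14, and leaving out 1 library gave 1 (without D1) to 8 (without G1), with 2 without D2. Hairpin calls went from 0 to 2 in P vs. G (miR-146b and miR-574) when 3 reads were added to each arm. Leaving out 1 library gave 0 to 1 hairpin call in each comparison, which was miR-146b without D3 in P vs. D and in P vs. G, and miR-126 without G1 in D vs. G. The cause of these changes was not tested.

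After removal of the stage means, the correlations of same-numbered libraries ran from -0.06 to 0.14, and those of unlike-numbered libraries from -0.19 to 0.05. All were weak, and whether the replicate numbers pair the libraries cannot be told from them. With the replicate block, calls numbered 11 for P vs. D, 3 for P vs. G and 4 for D vs. G, and the arm ratio differences were 2.30, 0.26 and -2.04 by construction. Depth limits the bovine 3p entry, which had 1 to 5 reads in 6 of 9 libraries, and the hairpins of low reads, 10 of 28 of which had at least 50 reads in each arm.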
